A study of Mus musculus with 12 samples.

Results

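Mitochondria make ATP by passing electrons along a chain of protein complexes and using the proton gradient that this builds to drive ATP synthase. The genes described here encode the nuclear subunits of that machinery in islets of Langerhans from non-pregnant and pregnant mice with and without the prolactin receptor. They were chosen by symbol in the annotation of the array. The rule took every symbol that starts with Ndufa, Ndufb, Ndufc, Ndufs, Ndufv, Uqcr, Cox4, Cox5, Cox6, Cox7, Cox8 or Atp5, together with Sdha, Sdhb, Sdhc, Sdhd and Cyc1, and no measured value entered it. Where several probe sets name a gene alone, the one with the highest mean of all 12 arrays was used. The rule found 90 genes of the 19938 that have such a probe set, through 115 probe sets.

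RNA from pancreatic islets of mice on the 129Sv background was measured on Affymetrix MoGene_1.0_ST arrays, with 4 groups of 3 arrays. The groups were non-pregnant (NP) Prlr+/+ mice, NP Prlr-/- mice, Prlr+/+ mice at pregnancy day 9.5 (P9.5) and Prlr-/- mice at P9.5. The mice were adults. The Prlr-/- mice lacked the prolactin receptor in the whole animal. Those that were pregnant also carried a progesterone pellet, given at the start of pregnancy because the genotype is sterile. At P9.5 the genotype and the pellet therefore cannot be told apart. Nor can pregnancy and the pellet in the Prlr-/- comparison of P9.5 with NP, which enters the interaction too. The comparisons ask whether the respiratory chain genes differ with pregnancy and whether they do so with and without the receptor.

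In beta cells, respiration couples glucose to insulin release, because ATP from the mitochondria closes potassium channels of the plasma membrane. Complex I (NADH dehydrogenase), complex II (succinate dehydrogenase) and complex III (cytochrome bc1) feed electrons to complex IV (cytochrome c oxidase), and complexes I, III and IV pump protons. The members hold 6 core subunits of complex I, 28 accessory subunits of complex I, 7 complex I assembly factors (Ndufaf1 to Ndufaf7, which the symbol rule also takes), 4 subunits of complex II, 9 of complex III, 10 general subunits of complex IV, 8 isoforms of complex IV subunits that are best known from muscle, testis, lung or hypoxic cells, and 17 genes of ATP synthase. Cox7a2l, which takes part in joining complexes III and IV, was counted apart. A further 6 probe sets name Cox7c, Ndufs5 or Ndufb4 together with a close copy and cannot be given to 1 gene.

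Transcription of these genes is commonly linked to the factors NRF1, GABPA (an ETS family factor) and YY1, while STAT5 is the factor that the prolactin receptor activates. Promoter windows of 250 bases before to 50 bases after the start of transcription were read from RefSeq (GRCm38.p6) for the 73 members that matched. The letters TGCGCATG (NRF1) were found in 12.3% of these members and in 2.42% of all 27025 genes with a window, on either strand. CCGGAAG (ETS and GABPA) was found in 24.7% of members and 9.93% of all genes, and AAGATGGC (YY1) in 13.7% and 3.19%. TTCNNNGAA (STAT5), which reads the same on both strands, was found in 6.85% of members and 9.55% of all genes. At least 1 of the letters for NRF1, ETS and YY1 was present in 45.2% of members and 14.4% of all genes. These are matches of letters and not measured binding.

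Of the 18 members that were called higher at P9.5 in at least 1 genotype (below, by complex), 14 had a window. NRF1, ETS and YY1 letters were in 14.3%, 21.4% and 14.3% of these 14, against 12.3%, 24.7% and 13.7% of the 73 members. STAT5 letters were in 2 of the 14 (14.3%), against 6.85% of the 73. Whether the letters go with the change at P9.5 was not tested. The windows of the 6 called members that hold any of the 4 strings are shown. Each is written 5′ to 3′ along the gene, and capitals mark the matches, which do not overlap in these windows. Ndufb6 (chr4:40279372-40279671, minus strand) holds ETS, NRF1 and STAT5 letters. Atp5md (chr19:47090598-47090897, minus strand) and Cox6a1 (chr5:115348909-115349208, minus strand) hold ETS letters. Atp5pb (chr3:105959214-105959513, minus strand) holds STAT5 and YY1 letters, Ndufaf4 (chr4:24897833-24898132, plus strand) NRF1 letters at 2 places, and Ndufa9 (chr6:126849095-126849394, minus strand) YY1 letters.
Ndufb6: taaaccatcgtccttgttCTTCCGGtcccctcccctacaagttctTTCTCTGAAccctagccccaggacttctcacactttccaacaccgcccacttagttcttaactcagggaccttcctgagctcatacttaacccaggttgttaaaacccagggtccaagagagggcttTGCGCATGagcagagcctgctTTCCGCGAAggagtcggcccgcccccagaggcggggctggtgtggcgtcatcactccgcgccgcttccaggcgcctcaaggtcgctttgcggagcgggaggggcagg
Atp5md: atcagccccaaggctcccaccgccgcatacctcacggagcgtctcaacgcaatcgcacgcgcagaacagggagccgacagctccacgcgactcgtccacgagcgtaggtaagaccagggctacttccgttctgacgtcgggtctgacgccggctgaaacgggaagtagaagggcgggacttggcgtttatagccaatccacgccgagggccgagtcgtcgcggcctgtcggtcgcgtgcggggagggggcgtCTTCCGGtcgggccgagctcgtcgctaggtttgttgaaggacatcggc
Cox6a1: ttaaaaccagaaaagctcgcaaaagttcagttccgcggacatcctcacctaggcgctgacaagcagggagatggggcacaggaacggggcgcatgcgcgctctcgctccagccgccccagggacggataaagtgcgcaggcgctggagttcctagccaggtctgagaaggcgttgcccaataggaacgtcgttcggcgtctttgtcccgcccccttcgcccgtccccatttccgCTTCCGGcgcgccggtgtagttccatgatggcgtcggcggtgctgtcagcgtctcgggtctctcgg
Atp5pb: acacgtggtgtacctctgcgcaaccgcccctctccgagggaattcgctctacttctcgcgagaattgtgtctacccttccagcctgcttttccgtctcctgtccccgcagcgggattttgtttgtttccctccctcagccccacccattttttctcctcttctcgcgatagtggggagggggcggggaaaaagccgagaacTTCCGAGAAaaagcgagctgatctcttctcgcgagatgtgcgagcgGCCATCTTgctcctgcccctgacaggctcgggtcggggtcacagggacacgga
Ndufaf4: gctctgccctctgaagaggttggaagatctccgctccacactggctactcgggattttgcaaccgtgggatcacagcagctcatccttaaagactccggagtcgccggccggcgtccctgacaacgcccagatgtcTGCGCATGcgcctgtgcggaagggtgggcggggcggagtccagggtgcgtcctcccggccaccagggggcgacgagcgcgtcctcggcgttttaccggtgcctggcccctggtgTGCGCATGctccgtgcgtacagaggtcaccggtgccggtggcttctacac
Ndufa9: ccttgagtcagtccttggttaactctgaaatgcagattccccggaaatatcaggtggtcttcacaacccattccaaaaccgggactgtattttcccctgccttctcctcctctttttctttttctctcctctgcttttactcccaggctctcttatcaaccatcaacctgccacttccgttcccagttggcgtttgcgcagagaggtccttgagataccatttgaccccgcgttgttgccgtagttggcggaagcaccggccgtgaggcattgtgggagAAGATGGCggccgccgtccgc

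The arrays were compared before any result was drawn from them. Correlations over probe sets were 0.972 to 0.988 within a stage (30 pairs) and 0.931 to 0.969 between stages (36 pairs). Xist, an RNA of the silenced X chromosome of females, had a log2 value of 3.8 in Prlr+/+ P9.5 replicate 2 and of 10 to 10.7 elsewhere (11 arrays). The Y-linked genes Kdm5d, Eif2s3y and Uty lay at 3.1 to 4.6 in all 12 arrays and were not raised in this one, so they gave no sign of male RNA. Why Xist was low in this array was not tested. The counts of called members over all complexes are given with and without it, and the other counts with it. No probe set names Prlr alone, so the deletion itself could not be checked here. The authors report Prlr as the only gene that differed between the genotypes in NP islets, without showing the data. The mean of 12 beta cell markers was 10.43 to 10.70 in all arrays, and that of 24 markers of acinar cells, the enzyme-secreting cells around the islets, was 9.86 to 10.47 in NP Prlr+/+, 10.14 to 11.18 in NP Prlr-/-, 9.20 to 10.39 in P9.5 Prlr+/+ and 8.69 to 10.33 in P9.5 Prlr-/- arrays. Single beta cell markers differed between the stages although their mean was flat. At P9.5 against NP, 2 of the 12 were called higher and 2 lower in Prlr+/+. In Prlr-/- 1 was called higher and 0 lower (the rule and the shares of all genes are given below). In bulk islets, fewer cells of a type and less RNA per cell cannot be told apart. The 3 arrays of a group are biological replicates in the labels.

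Many of these genes were higher at P9.5 than in NP islets in both genotypes, in Prlr-/- with the pellet added to pregnancy. Calls required a change of 1.5-fold or more and an adjusted p under 0.05 in limma (Benjamini-Hochberg over all probe sets). At P9.5 against NP in Prlr+/+ islets, 9 of 90 members were called higher and 0 lower, where 5.85% of all genes were called higher and 2.19% lower. In Prlr-/- islets 16 were called higher and 0 lower, where 7.86% of all genes were higher and 3.06% lower. Before adjustment, limma gave p under 0.05 for 38 higher and 3 lower members in Prlr+/+ and for 56 higher and 2 lower in Prlr-/-, and for 38.2% and 47.7% of all genes in either direction. Most changes were below 1.5-fold. By adjusted p at any fold change, 29 members were higher and 1 lower in Prlr+/+ (13.4% and 9.91% of all genes), and 47 higher and 1 lower in Prlr-/- (19% and 16.1% of all genes). All genes include dim ones, and without the dimmest 40% of probe sets 86 members remained. Of these, 9 were called higher in Prlr+/+ and 16 in Prlr-/-, against 8.38% and 11.3% of the remaining genes. By adjusted p alone 32 and 49 were higher, against 21.2% and 28.8%.

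The median log2 fold change of the 90 members at P9.5 was 0.20 in Prlr+/+ and 0.33 in Prlr-/- islets, where the median over all genes was -0.07 in each. Without the dimmest 40% of probe sets the members' medians were 0.22 and 0.33, against 0 and 0.07 over the remaining genes. The 3 P9.5 arrays all lay above the 3 NP arrays for 33 members in Prlr+/+ (16.5% of all genes) and for 55 in Prlr-/- (23.4% of all genes). Leaving out Prlr+/+ P9.5 replicate 2 gave 12 higher (4.9% of all genes) and 1 lower in Prlr+/+, with a median of 0.20, and 24 higher by adjusted p alone (9.06% of all genes). The Prlr+/+ count depended on the NP arrays. It was 17 without Prlr+/+ NP replicate 1, which was the highest of its group in 58 members, and 5 without Prlr+/+ NP replicate 3, which was the lowest of its group in 48. The shares of all genes called higher in these fits were 6.91% and 5.15%. In Prlr-/- the count was 12 to 19 over all arrays left out in turn.

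**Figure D1:**
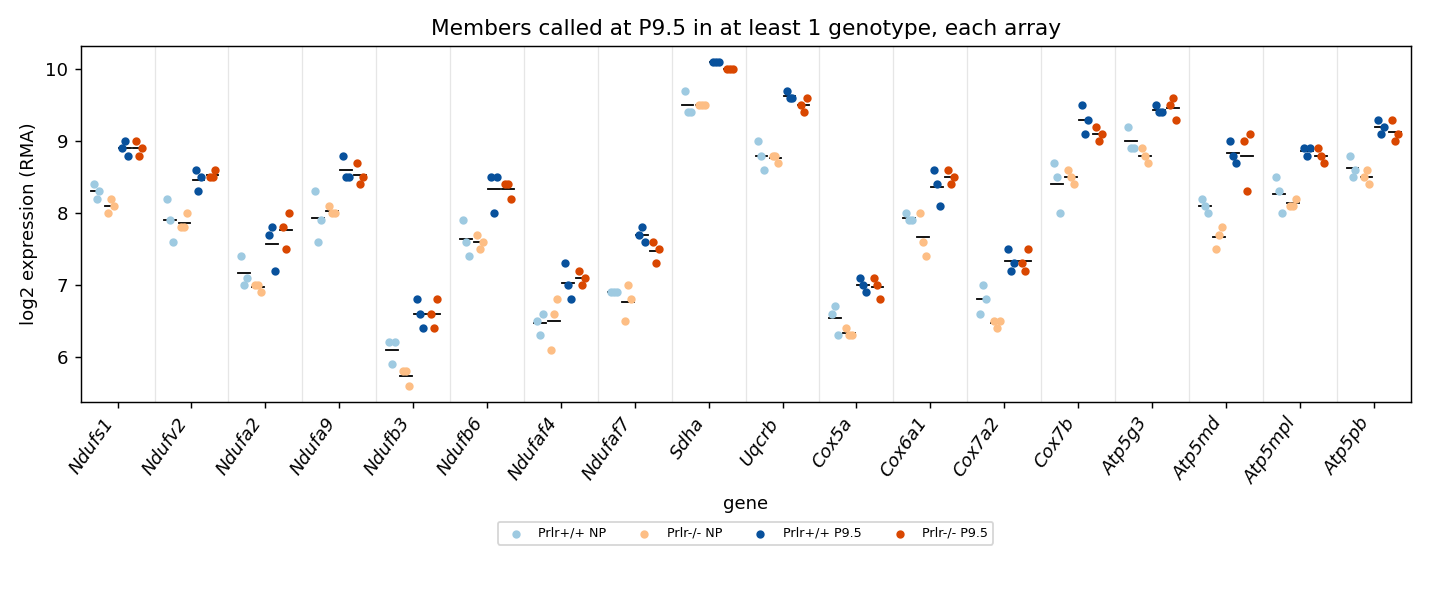
Log2 expression (vertical axis) of the 18 members called at P9.5 in at least 1 genotype (horizontal axis), with 1 point per array, 3 arrays per group and a black line at each group mean. In all 18 genes the P9.5 means of both genotypes lie above both NP means, and levels of different genes are not comparable on this axis.

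Complex I takes electrons from NADH, and all 6 measured core subunits had log2 fold changes above 0 at P9.5, with medians of 0.40 in Prlr+/+ and 0.45 in Prlr-/- islets (5 of 6 after quantile normalization, with Ndufs7 below 0 in Prlr+/+ and Ndufs3 in Prlr-/-). Ndufs1, the largest core subunit, which carries iron-sulfur clusters, was at 8.4, 8.2 and 8.3 in the NP Prlr+/+ arrays and at 8.9, 9.0 and 8.8 at P9.5. Prlr-/- islets had Ndufs1 at 8.0, 8.2 and 8.1 (NP) and at 9.0, 8.8 and 8.9 (P9.5). The 6 P9.5 arrays lay above the 6 NP arrays. The log2 fold change was 0.60 in Prlr+/+ (SE 0.0988, adjusted p = 0.00192 from limma) and 0.80 in Prlr-/- (SE 0.0988, adjusted p = 0.000236 from limma). Ndufv2, an iron-sulfur subunit of the NADH-binding module, was called in Prlr-/- (0.67) and was at 0.57 in Prlr+/+ on the same scale. The remaining core subunits, at 0.50 and 0.20 for the NADH-binding Ndufv1, 0.30 and 0.50 for Ndufs8, 0.10 and 0.40 for Ndufs7, and 0.20 and 0.10 for Ndufs3 (log2 fold change in Prlr+/+ and in Prlr-/-), were not called.

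Of the 28 accessory subunits of complex I, which surround the core, 2 were called higher in Prlr+/+ and 3 in Prlr-/-, where 5.85% and 7.86% of all genes were. By adjusted p alone 9 and 17 were higher and 0 lower, where 13.4% and 19% of all genes were higher. Ndufb6, a membrane arm subunit, was at 7.9, 7.6 and 7.4 (NP) and 8.5, 8.0 and 8.5 (P9.5) in Prlr+/+ islets. In Prlr-/- islets Ndufb6 was at 7.7, 7.5 and 7.6 (NP) and 8.4, 8.4 and 8.2 (P9.5). Its groups did not overlap, and its log2 fold change was 0.70 (adjusted p = 0.00896 from limma) and 0.73 (adjusted p = 0.0048). Ndufb3, also of the membrane arm, had the largest change of the class in Prlr-/- islets, from 5.8, 5.8 and 5.6 to 6.6, 6.4 and 6.8. In Prlr+/+ islets Ndufb3 went from 6.2, 5.9 and 6.2 to 6.8, 6.6 and 6.4. Its log2 fold change was 0.87 in Prlr-/- (SE 0.139, adjusted p = 0.000986 from limma) and, below the fold minimum, 0.50 in Prlr+/+ (adjusted p = 0.0247). Ndufa9, a subunit near the quinone site, was called in Prlr+/+ (0.67), and Ndufa2 in Prlr-/- (0.80). At the other end stood Ndufa1 (-0.17 in Prlr+/+, -0.10 in Prlr-/-) and Ndufa11 (-0.17 and -0.13), which did not pass.

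The 7 assembly factors of complex I, which build the complex but are not part of it, had a median log2 fold change of 0.50 in each genotype. By adjusted p alone 5 of 7 were higher in each, where 13.4% of all genes were in Prlr+/+ and 19% in Prlr-/-. Ndufaf7, a methyltransferase, was at 6.9 in all 3 NP Prlr+/+ arrays and at 7.7, 7.8 and 7.6 at P9.5. Prlr-/- islets had Ndufaf7 at 6.5, 7.0 and 6.8 (NP) and 7.6, 7.3 and 7.5 (P9.5). All 6 P9.5 arrays were higher than all 6 NP arrays, with log2 fold changes of 0.80 (SE 0.128, adjusted p = 0.00163 from limma) and 0.70 (SE 0.128, adjusted p = 0.00202). Ndufaf4 was called in Prlr-/- (0.60, against 0.57 in Prlr+/+). Ndufaf3 stood lowest, at 0.07 and 0.10, and did not pass.

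In complex II, which links the tricarboxylic acid cycle to the chain, the catalytic flavoprotein Sdha had the largest change in each genotype. Sdha was at 9.7, 9.4 and 9.4 in NP Prlr+/+ arrays, at 9.5 in each NP Prlr-/- array, at 10.1 in each P9.5 Prlr+/+ array and at 10 in each P9.5 Prlr-/- array. The stages did not overlap. Its log2 fold change was 0.60 in Prlr+/+ (SE 0.0928, adjusted p = 0.00139 from limma), which was called, and 0.50 in Prlr-/- (adjusted p = 0.00224), below the fold minimum. The iron-sulfur subunit Sdhb had log2 fold changes of 0.37 and 0.37, the anchor Sdhd of 0.13 and 0.33, and the anchor Sdhc of -0.23 and 0.13. None of these was called, but Sdhd was higher by adjusted p alone in Prlr-/-. Equal values within a group are equal only to the step of 0.1 of the deposited table.

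Complex III, with 9 genes, had 1 called member in each genotype, the same gene. Of all genes, 5.85% were called higher in Prlr+/+ and 7.86% in Prlr-/-. Uqcrb, a small subunit that binds ubiquinone, was at 9.0, 8.8 and 8.6 (NP) and 9.7, 9.6 and 9.6 (P9.5) in Prlr+/+ islets. The Prlr-/- values of Uqcrb were 8.8, 8.8 and 8.7 (NP) and 9.5, 9.4 and 9.6 (P9.5). No NP array reached a P9.5 array, and the log2 fold change was 0.83 (SE 0.108, adjusted p = 0.000651 from limma) and 0.73 (SE 0.108, adjusted p = 0.000617). Its other 2 probe sets gave 1.00 and 0.67 in Prlr+/+, and 0.90 and 0.53 in Prlr-/-. The core protein Uqcrc2 was at 0.50 in each genotype and passed by adjusted p alone (0.00275 and 0.00173 from limma), while Uqcrc1 was at 0.00 and 0.33 and Uqcr11 at -0.03 and 0.03.

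In complex IV, most general subunits lay above 0 and most restricted isoforms below 0. Of the 10 general subunits, 8 had log2 fold changes above 0 in Prlr+/+ and 9 in Prlr-/-, with medians of 0.42 and 0.43. Quantile normalization of the deposited values gave 6 and 8 above 0, with medians of 0.31 and 0.25. Of the 8 restricted isoforms, 8 were below 0 in Prlr+/+ and 7 in Prlr-/-, with medians of -0.13 and -0.22, where 57% and 53.7% of all genes were below 0. With each array centred on its median they were 6 and 6, and after quantile normalization 7 and 6, with medians of -0.07 to -0.04. Most restricted isoforms were dim on the array. Cox7b2 lay at 3.7 to 4.2 in the 12 arrays, in the range of the Y-linked genes given above, and the 8 muscle markers, counted as a list, had means of 5.36 to 5.84.

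Cox7b, a small subunit of the enzyme, had the largest change of all 90 members in Prlr+/+ islets. It was at 8.7, 8.5 and 8.0 (NP) and 9.5, 9.1 and 9.3 (P9.5). In Prlr-/- islets Cox7b was at 8.6, 8.5 and 8.4 (NP) and 9.2, 9.0 and 9.1 (P9.5). The stages did not overlap, and the log2 fold change was 0.90 (SE 0.164, adjusted p = 0.00321 from limma) and 0.60 (SE 0.164, adjusted p = 0.0163). The other probe set of Cox7b gave 0.67 in Prlr+/+ and, below the fold minimum, 0.57 in Prlr-/-. With the mean of its probe sets, Cox7b lost its call in Prlr-/-. Its testis isoform Cox7b2 was at -0.03 in each genotype.

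Cox7a2, the general form of subunit 7a, was at 6.6, 7.0 and 6.8 (NP) and 7.5, 7.2 and 7.3 (P9.5) in Prlr+/+ arrays and at 6.5, 6.4 and 6.5 (NP) and 7.3, 7.2 and 7.5 (P9.5) in Prlr-/- arrays. It was called in Prlr-/- (log2 fold change 0.87, SE 0.125, adjusted p = 0.000527 from limma) and stayed below the fold minimum in Prlr+/+ (0.53, adjusted p = 0.0108), while its muscle isoform Cox7a1 was at -0.10 and -0.20. The NP Prlr-/- arrays lay below the NP Prlr+/+ arrays for Cox7a2, and the P9.5 arrays of the genotypes overlapped. Cox6a1 went from 8.0, 7.6 and 7.4 to 8.6, 8.4 and 8.5 in Prlr-/- islets (0.83, SE 0.157, adjusted p = 0.00245 from limma). In Prlr+/+ islets Cox6a1 went from 8.0, 7.9 and 7.9 to 8.6, 8.4 and 8.1 (0.43, adjusted p = 0.0697).

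Its heart and muscle isoform Cox6a2 was the only member below 0 by adjusted p in Prlr+/+ islets. Cox6a2 was at 8.7, 9.1 and 9.0 (NP) and 8.4, 8.6 and 8.2 (P9.5) in Prlr+/+ arrays and at 8.6, 8.8 and 8.8 (NP) and 8.7, 8.3 and 8.6 (P9.5) in Prlr-/- arrays. The stages did not overlap in Prlr+/+ and overlapped in Prlr-/-. Its log2 fold change was -0.53 (SE 0.146, adjusted p = 0.0227 from limma) and -0.20 (adjusted p = 0.307). Over 21 alternative fits its Prlr+/+ value was -0.65 to -0.43, with adjusted p from 0.00414 to 0.0865 and under 0.05 in 15. The adjusted p was 0.0622 to 0.0865 in 4 of the fits that left out 1 Prlr+/+ array (NP replicates 2 and 3, P9.5 replicates 1 and 3), 0.0676 with each array centred on its median and 0.0541 with the Prlr+/+ arrays alone. Cox8b, also a muscle isoform, was the only member below 0 by adjusted p in Prlr-/- islets (-0.37, adjusted p = 0.0351, against -0.13 in Prlr+/+), at 5.0 to 5.6 in all arrays. Over 20 alternative fits its Prlr-/- value was -0.42 to -0.16, with adjusted p from 0.0157 to 0.306 and under 0.05 in 11.

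No member of the remaining isoform pairs was called. Cox4i1 was at 0.13 and 0.33 and its lung isoform Cox4i2 at -0.03 and 0.07. Cox6b1 was at -0.27 and -0.07 and its testis isoform Cox6b2 at -0.13 and -0.33, so here the general form too was below 0. Cox8a was at -0.07 and 0.33 and the testis isoform Cox8c at -0.20 and -0.23. Ndufa4, now counted with complex IV, was at 0.53 and 0.50, and Ndufa4l2, a gene known to respond to hypoxia, at -0.30 and -0.23 (all log2 fold changes at P9.5, Prlr+/+ first). Cox5a, a subunit on the matrix side of the enzyme, was called in Prlr-/- (0.63, against 0.47).

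**Figure D2:**
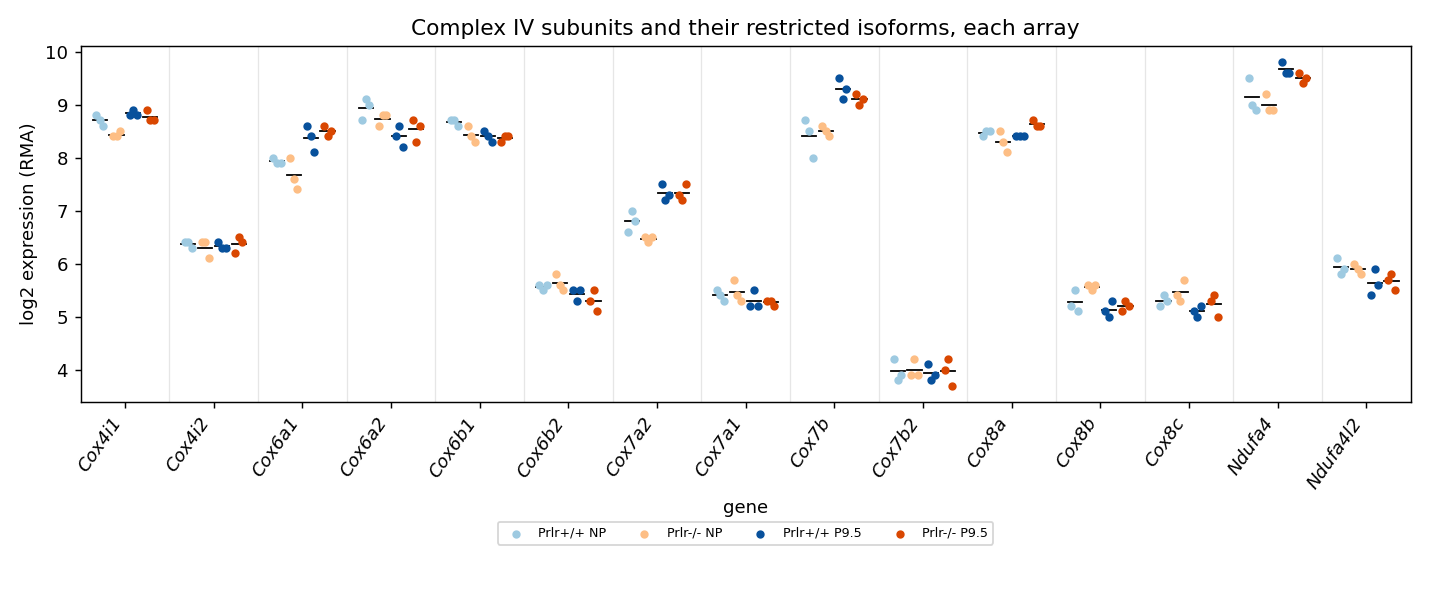
Log2 expression (vertical axis) of general complex IV subunits and their restricted isoforms (horizontal axis, isoforms next to their general form), with 1 point per array and a black line at each group mean of 3 arrays. Points can be compared within a gene only. Cox7b, Cox6a1 and Cox7a2 lie higher at P9.5, and Cox6a2 lies lower at P9.5 in Prlr+/+ arrays.

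ATP synthase turns the proton gradient into ATP through a catalytic head, a membrane ring and stalks. Of its 17 genes, 2 were called higher in Prlr+/+ and 4 in Prlr-/- islets and 0 lower, where 5.85% and 7.86% of all genes were called higher. Atp5md, a small membrane subunit associated with synthase dimers, had the largest change of all members in Prlr-/- islets. It was at 7.5, 7.7 and 7.8 (NP) and 9.0, 8.3 and 9.1 (P9.5) in Prlr-/- arrays and at 8.2, 8.1 and 8.0 (NP) and 9.0, 8.8 and 8.7 (P9.5) in Prlr+/+ arrays. The stages did not overlap, and P9.5 Prlr-/- replicate 2 was the lowest P9.5 array. The log2 fold change was 1.13, or 2.19-fold, in Prlr-/- (SE 0.183, adjusted p = 0.00103 from limma) and 0.73 in Prlr+/+ (SE 0.183, adjusted p = 0.0151). Its other 2 probe sets gave 0.93 and 0.97 in Prlr-/-. In Prlr+/+ they gave 0.50 (adjusted p = 0.0859 from limma) and 0.57, both below the fold minimum, so neither was called there. With the mean of its probe sets, Atp5md kept its call in Prlr+/+.

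Atp5mpl, another small membrane subunit, was called in both genotypes, at 0.60 (adjusted p = 0.00499 from limma) and 0.67 (adjusted p = 0.00188). Atp5mpl was at 8.5, 8.3 and 8.0 (NP) and 8.9, 8.8 and 8.9 (P9.5) in Prlr+/+ arrays and at 8.1, 8.1 and 8.2 (NP) and 8.9, 8.8 and 8.7 (P9.5) in Prlr-/- arrays, with no overlap of the stages. In Prlr-/- islets the stalk subunit Atp5pb was called as well (0.63). Its other probe set gave 0.40 in each genotype, below the fold minimum, and with the mean of its probe sets the call was lost. Also called in Prlr-/- was Atp5g3, which encodes the c subunit of the ring (0.67). Of the other 2 genes of the same c subunit, Atp5g1 was at 0.40 and 0.23 and Atp5g2 at -0.20 and 0.00. Subunits of the catalytic head and its shaft did not reach the fold minimum, with the alpha subunit Atp5a1 at 0.10 and 0.30, the beta subunit Atp5b at 0.00 and 0.23, the gamma subunit Atp5c1 at 0.17 and 0.20, and the delta subunit Atp5d at -0.27 and 0.13. Over the 17 genes the median was 0.17 in Prlr+/+ and 0.23 in Prlr-/- islets, and 0.00 and 0.07 after quantile normalization.

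**Figure D3:**
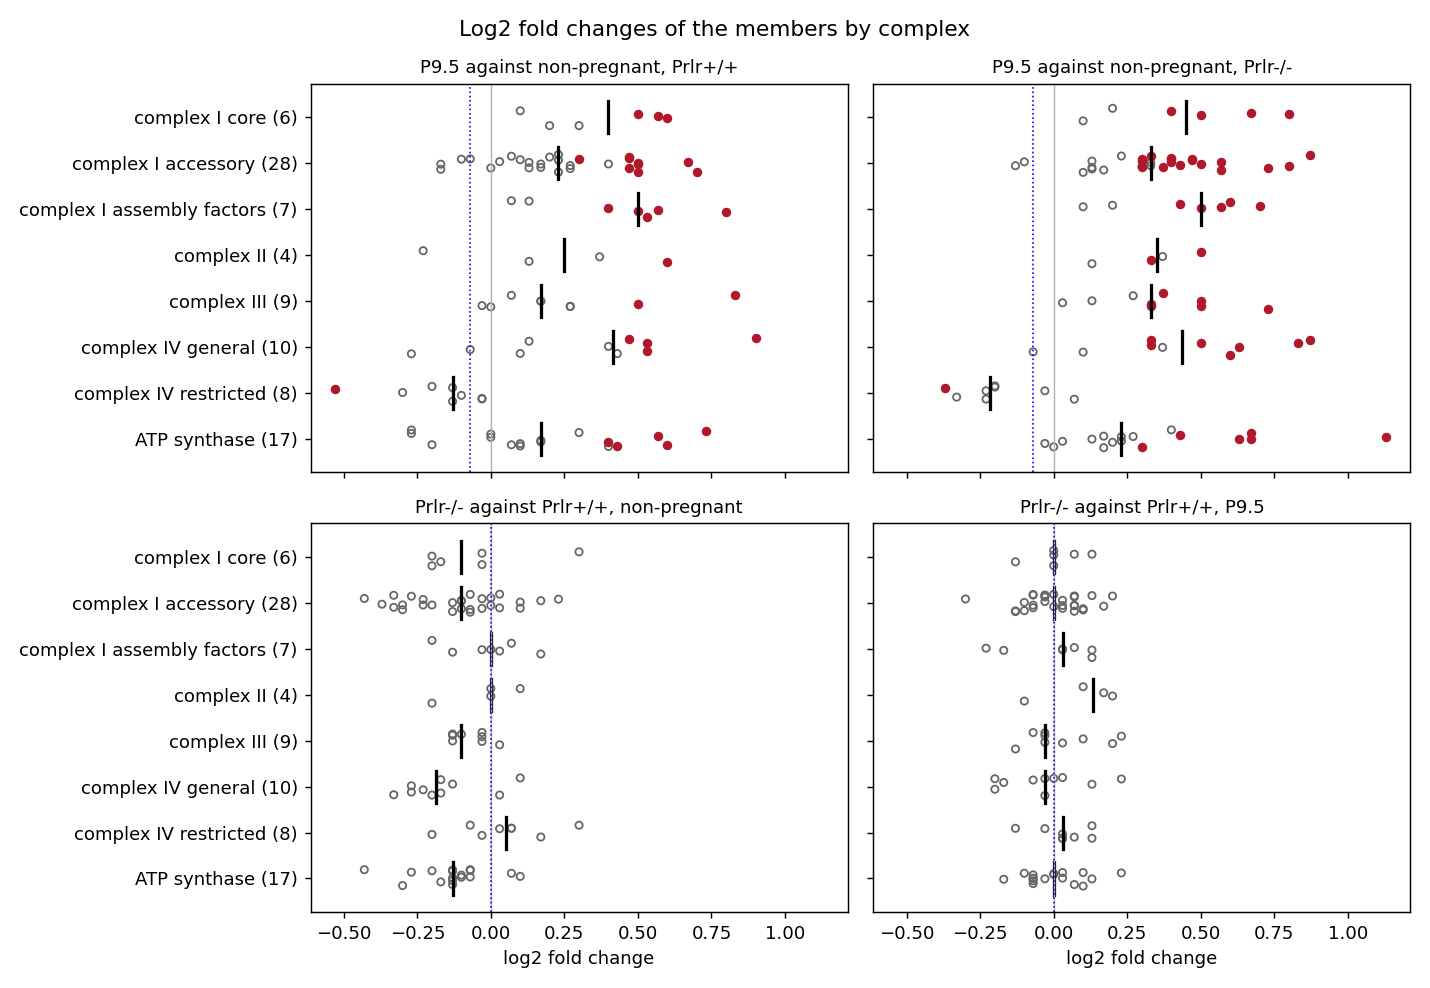
Log2 fold changes (horizontal axes) of the members by complex (vertical axes, number of members in brackets) in 4 comparisons, with 1 circle per gene, filled red where the adjusted p from limma was under 0.05, a black bar at the median of the class and a dotted blue line at the median of all genes. Apart from the restricted complex IV isoforms and Cox7a2l, which was counted alone, the classes have medians above 0 at P9.5 in both genotypes in these values (ATP synthase in Prlr+/+ was at 0.00 after quantile normalization), and no circle is filled in the genotype comparisons.

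The pregnancy comparisons of the genotypes compare different arrays, but the joint fit gives both the same estimate of each gene's spread. Their calls are therefore not independent. Of the 9 members called in Prlr+/+ and the 16 called in Prlr-/- islets, 7 were called in both, which is 77.8% of the former and 43.8% of the latter. They were Ndufs1, Ndufb6, Ndufaf7, Uqcrb, Cox7b, Atp5md and Atp5mpl. The same overlap over all genes was not computed, so this one cannot be called particular to the members. By adjusted p alone, 25 members were higher in both, as were 11.2% of all genes. Across the 90 members, which are not independent replicates, the log2 fold changes of the genotypes correlated at 0.80 (Pearson) and 0.81 (Spearman), against 0.77 and 0.75 over all genes, and 84.4% of members against 77.9% of all genes had the same sign.

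**Figure D4:**
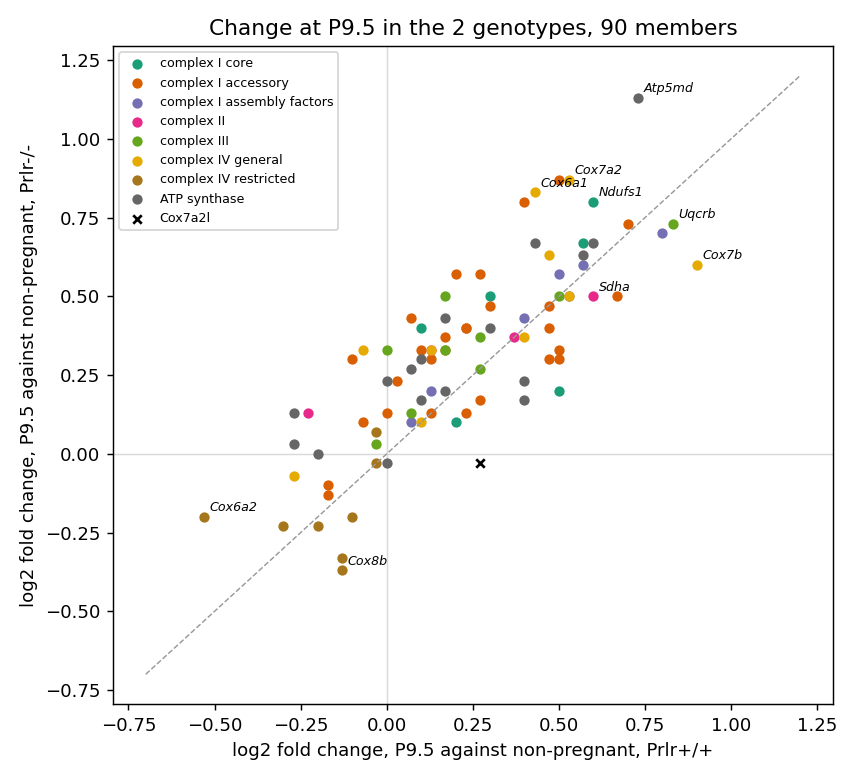
Log2 fold change at P9.5 against NP in Prlr-/- islets (vertical axis) against that in Prlr+/+ islets (horizontal axis), with 1 point per member coloured by complex, 90 in all, and a dashed line of equal change. Atp5md lies highest in Prlr-/-, Cox7b farthest right in Prlr+/+, and 7 of the 8 restricted complex IV isoforms lie at the lower left.

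The genotypes themselves did not differ past the threshold for any member. In NP islets, 0 of 90 members were called between Prlr-/- and Prlr+/+, where 0.00502% of all genes were called, and the lowest adjusted p from limma was 0.177. At an unadjusted p under 0.05, 15 members were lower and 1 was higher in Prlr-/-, and 63 of 90 log2 fold changes were below 0, with a median of -0.10. Over all genes, 10.9% had such a p in either direction, 47.8% were below 0 and the median was 0. Without Prlr+/+ NP replicate 1 the members' median was -0.02, and over all arrays left out in turn it was -0.15 to -0.02. With each array centred on its median it was -0.20, where that of all genes was -0.10. The lowest values were those of Ndufs5 (-0.43, SE 0.113, adjusted p = 0.177) and Atp5md (-0.43, SE 0.183, adjusted p = 0.362). Ndufs5 was at 6.5, 6.5 and 6.6 in Prlr+/+ and at 6.2, 6.0 and 6.1 in Prlr-/- arrays, which did not overlap, while a probe set that names it together with a copy of the gene gave -0.07. The highest value was 0.30, for Ndufv1 and Cox8b.

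At P9.5, 0 of 90 members were called between the genotypes, where 0.326% of all genes were called. The lowest adjusted p from limma was 0.718, and at an unadjusted p under 0.05, 2 members were higher (Cox8a at 0.23 and Atp5d at 0.23) and 1 lower (Ndufv3 at -0.30) in Prlr-/- islets, against 5.93% of all genes in either direction. The median of the members was 0.00, and their values spanned -0.30 to 0.23. The median standard error was 0.123. Differences below the fold minimum could not be called, and differences well above the standard error did not pass by adjusted p either. Ndufv3, at -0.30 with SE 0.106, had an adjusted p of 0.718 from limma. With 3 arrays a group, the counts of 0 therefore do not exclude differences of this size. The same counts of 0 came out without Prlr+/+ P9.5 replicate 2.

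The interaction asks whether the change at P9.5 differed between the genotypes, with the pellet in Prlr-/- only. No member passed, with 0 of 90 called against 0.105% of all genes and a lowest adjusted p from limma of 0.402. At an unadjusted p under 0.05, 4 members were above 0 and 0 below, where 9.28% of all genes had such a p in either direction. The 4 were Ndufb9, Cox8a and Atp5d, each at 0.40, and Ndufs5 at 0.37 on the log2 scale, with values above 0 where the change was more positive in Prlr-/-. The members' median was 0.07, against 0 over all genes. It was 0.02 without Prlr+/+ NP replicate 1 and 0.17 without Prlr+/+ NP replicate 3, and with each array centred on its median it was 0.17, against 0.10 over all genes. For Atp5md (1.13 and 0.73) and Cox7b (0.60 and 0.90 in Prlr-/- and Prlr+/+) the difference between the genotypes was therefore not past the threshold. The larger count of calls in Prlr-/- islets is not by itself a difference between the genotypes.

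The acinar markers moved with the same comparisons. At P9.5 against NP, 13 of 24 were called lower and 1 higher in Prlr-/- islets (median log2 fold change -1.32), and 0 lower and 1 higher in Prlr+/+ (median -0.53). All 5 markers of duct cells were below 0 in both genotypes, with 1 called lower in each, and their mean was 6.32 to 6.62 in NP and 5.96 to 6.16 in P9.5 arrays, without overlap. The part of the duct markers in the members' changes was not tested. With the acinar marker mean of each array added to the model, 8 members were called higher in Prlr+/+ and 13 in Prlr-/-, and 0 were lower, where 5.03% and 4.15% of all genes were called higher. By adjusted p alone, 26 members were higher in Prlr+/+ (10.8% of all genes), and in Prlr-/- the 47 became 19 (6.06% of all genes). The calls lost were those of Ndufs1 in Prlr+/+ (log2 fold change 0.57 in this model) and of Ndufv2 (0.64), Ndufa2 (0.55), Ndufaf4 (0.41) and Cox7b (0.69) in Prlr-/-, while Ndufc1 was gained there (0.68, against 0.57 without the marker mean). That model was chosen after the data were seen.

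Among calls that were lost when 1 array was left out, the log2 fold change was 0.47 to 0.68 in Prlr+/+ and 0.40 to 0.60 in Prlr-/-, with adjusted p from limma of 0.00731 to 0.0603 and of 0.00747 to 0.0851. In Prlr+/+ the calls of Ndufaf7, Uqcrb and Cox7b held with any array left out. That of Ndufs1 was lost without NP replicate 2 or P9.5 replicate 2, Ndufa9 without NP replicate 2 or P9.5 replicate 1, Ndufb6 without NP replicate 3, and Sdha without NP replicate 2 or 3. Atp5md was lost without NP replicate 3 or P9.5 replicate 1, and Atp5mpl without either of these or P9.5 replicate 3. In Prlr-/- the calls lost were Ndufaf4 without NP replicate 1 or P9.5 replicate 1 or 3, Ndufaf7 without NP replicate 1, Cox5a without P9.5 replicate 1, and Cox7b and Atp5pb without NP replicate 3 or P9.5 replicate 1. The other 11 Prlr-/- calls held with any array left out.

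Genes around the respiratory chain were read from lists of their function. Of 37 electron carriers and assembly factors outside the symbol rule, 4 were called higher in Prlr+/+ and 6 in Prlr-/- islets and 0 lower. They included Cycs, the cytochrome c that carries electrons between complexes III and IV (log2 fold change 0.83 and 0.73), the copper chaperone Cox17 (0.77 and 0.80) and the complex I assembly factor Tmem126b (0.80 and 0.93). Of 22 genes of the tricarboxylic acid cycle and pyruvate entry, 6 were called higher in Prlr+/+ and 8 in Prlr-/- and 0 lower, with Dld, the dehydrogenase subunit shared by several of these enzymes, at 1.10 and 1.07, the pyruvate dehydrogenase subunit Pdhb at 0.83 and 0.73, and fumarase, Fh1, at 0.70 and 0.97. The 2 mitochondrially encoded genes measured, COX2 and ND3, were at 0.17 and 0.23 in Prlr+/+ and at 0.17 and 0.27 in Prlr-/-, and neither was called.

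Of 77 mitochondrial ribosomal proteins, 11 were called higher in Prlr+/+ and 12 in Prlr-/- and 0 lower, and the largest change was that of Mrpl42 (1.33 and 1.5). Among 15 transcription factors and coactivators of mitochondrial genes, Tfb2m, a transcription factor of the mitochondrial genome, was the only one called in Prlr+/+ (0.90), and Tfb2m (0.80), Tfb1m (0.77) and the mitochondrial genome packaging factor Tfam (0.83) were called in Prlr-/-. Tfam was at 0.37 in Prlr+/+. The factors named with the promoters, Nrf1 (0.00 and 0.03), Yy1 (-0.03 and 0.13) and Gabpa (0.40 and 0.57), were not called. Of 17 mitochondrial carriers, 3 were called higher in Prlr+/+ and 1 in Prlr-/-, with the outer membrane channel Vdac3 in both (0.93 and 0.87). Of 16 genes of glycolysis and lactate, Pgk1 alone was called, in both genotypes (0.77 and 1.10). The shares of all genes called in these comparisons are those given above.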

How the data were processed

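The members and the gene lists were chosen with earlier results of these data known. The authors hybridised total RNA of islets to the arrays and made the values in R 2.12.2 with the aroma.affymetrix package. They used robust multichip analysis, in which probe intensities are background-corrected, quantile normalized and summarised to a log2 value for each probe set. The deposited table holds these log2 values, rounded to steps of 0.1, for 12 arrays and 35511 probe sets, and every value carries those steps. The build to which the probe sets were designed is not given in the sources used here. The array annotation gave the symbols, and in it 21789 probe sets name 1 gene, 1621 several and 12101 none. Arrays have no read depth, and their number limits the precision.

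Tests were run with limma 3.58.1 in R 4.3.3. All probe sets were fitted to the means of the 4 groups, contrasts were tested with eBayes and p-values were adjusted by Benjamini-Hochberg over all probe sets. Fitting the 4 groups together shares 1 estimate of the spread, and with 3 arrays a group the smallest p of an exact permutation test is 0.10. Named are the called members, the largest rise and fall of each class, complex II, the complex I core and the isoform pairs, and of each pathway list called genes or the extremes. Values for Ndufa11, Uqcrc1, Uqcrc2, Cox5a and subunits of the ATP synthase head were added after they were seen, as were Nrf1, Yy1 and Gabpa. Alternatives were a fit of the compared groups only, a replicate block, leaving out each array or the dimmest 40% of probe sets, array weights, a robust prior with an intensity trend, quantile normalization, centring on the array median, the mean of a gene's probe sets, added noise of up to 0.05 and other fold minimums. The acinar covariate was added after the data were seen.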

Additional observations from a re-analysis of the deposited data

How the results depend on the processing

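The number of members called higher at P9.5 moved with the processing and that of the genotype comparisons did not. In Prlr+/+ islets the 9 became 15 with median centring (7.73% of all genes) and 5 with quantile normalization (4.75%). They became 29 with no fold minimum (13.4% of all genes) and 5 to 17 when 1 array was left out. With array weights they were 15 and at a fold minimum of 1.3 they were 28, for which shares of all genes were not computed. The 0 lower became 1 with quantile normalization, with rounding noise, at a fold minimum of 1.3 and with none, and 0 to 1 with 1 array left out, the gene being Cox6a2. In Prlr-/- islets the 16 became 31 with median centring (14.9% of all genes) and 13 with quantile normalization (6.76%). They became 47 with no fold minimum (19% of all genes) and 12 to 19 with 1 array left out. At a fold minimum of 1.3 they were 35, and the share of all genes was not computed. The 0 lower became 1 with no fold minimum. The members' median in Prlr-/- was 0.50 with median centring and 0.18 with quantile normalization, against 0.33. Median centring moved the median over all genes there from -0.07 to 0.10 and the share of higher among all calls from 72% to 94.1%, and in Prlr+/+ from 72.8% to 85.8%. A fit of only the compared groups gave 8 and 16. With quantile normalization the calls of Ndufs1, Ndufa9, Sdha and Atp5mpl were lost in Prlr+/+. Those of Ndufv2, Uqcrb, Cox7b, Atp5g3, Atp5mpl and Atp5pb were lost with it in Prlr-/-. In the genotype comparisons and the interaction 0 members were called in every fit, with a lowest adjusted p for the interaction of 0.211 to 0.597 in limma.

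With the replicate number of the labels as a block, 9 members were higher in Prlr+/+ and 16 in Prlr-/-, and 0 were called between the genotypes or for the interaction. Deviations of arrays with the same number correlated at over 0.1 in 7 of 18 pairs (-0.114 to 0.227), so the numbers were not taken as pairs.

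Of the values of single members under the alternatives, 37 lost their call, 21 gained one and 33 changed sign, all of them small and not called. In the NP genotype comparison the sign turned with 1 array left out for Atp5g1 (-0.07 to 0.28) and Cox7b (-0.10 to 0.25), and for Uqcr11 (-0.07 with median centring, -0.02 without Prlr+/+ NP replicate 3). In Prlr+/+ at P9.5, Cox4i2 and Uqcr11 turned to 0.03 with median centring, Cox7b2 to 0.03 with median centring, 0.05 with quantile normalization and 0.05 with array weights, and Ndufs7 to -0.03 with quantile normalization. Leaving out 1 array gave -0.12 to 0.08 for Cox7b2, -0.27 to 0.03 for Ndufa1, -0.08 to 0.22 for Ndufaf3 and, without Prlr+/+ NP replicate 1, 0.02 for Uqcr11. In Prlr-/- at P9.5, median centring turned Atp5j, Cox7a2l and Cox7b2 to 0.13, Cox6b1 to 0.10 and Ndufa11 to 0.03, and quantile normalization turned Cox7b2 to 0.08, Ndufs3 to -0.08, Sdhc to -0.07 and Uqcr11 to -0.03. Cox4i2 turned to -0.01 with array weights and -0.01 with the acinar marker mean. Leaving out 1 array there gave -0.03 to 0.15 for Cox4i2, -0.13 to 0.02 for Cox6b1, -0.12 to 0.03 for Cox7a2l and -0.15 to 0.10 for Cox7b2. The interaction of Ndufaf7 was -0.23 to 0.02. The cause was not tested.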

Other observations

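Within each group, the array numbered 1 in the labels held the highest value of its group in more members than either of the others. It was the highest in 58 of 90 members in NP Prlr+/+, 41 in NP Prlr-/-, 45 in P9.5 Prlr+/+ and 39 in P9.5 Prlr-/- islets, and over all genes in 34.2%, 31.8%, 22.6% and 19.5%.

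The probe sets shared by Ndufb4 and Ndufb4b, which name a complex I subunit and a copy of it, were higher at P9.5 in Prlr-/- islets, by log2 fold changes of 0.53 (adjusted p = 0.0327 from limma) and 0.63 (adjusted p = 0.0119), and were at 0.40 and 0.40 in Prlr+/+ (adjusted p = 0.116 and 0.0985). The 3 probe sets shared by Cox7c and Gm12338 were at 0.00 to 0.03 in Prlr+/+ and 0.20 to 0.23 in Prlr-/- islets and did not pass.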
